A study of Mus musculus with 19 samples.

Results

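De novo fatty acid synthesis builds fatty acids from acetyl-CoA, and it was followed here through 10 genes in fat cells and brown fat with and without MED1, part of Mediator, the large complex through which DNA-bound transcription factors reach RNA polymerase II. The 10 genes were chosen by name, with earlier results of these data known. Acly and Acss2 make acetyl-CoA in the cytosol from citrate and from acetate, and Me1 (malic enzyme) makes NADPH. Acaca and Acacb are the acetyl-CoA carboxylases, Fasn is the fatty acid synthase and Scd1 puts a double bond into the saturated product. Srebf1 and Mlxipl encode the transcription factors SREBP-1 and ChREBP, and Thrsp encodes Spot 14, a small protein tied to lipogenesis. Each of the 10 had exactly 1 row with 1 gene symbol among the 22180 genes tested, and no filter on dim genes was applied.

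In the pathway as it is known, citrate leaves the mitochondrion, acetyl-CoA carboxylase turns acetyl-CoA into malonyl-CoA, and fatty acid synthase extends the chain with NADPH. SREBP-1 answers to insulin and sterols, and ChREBP to glucose metabolites. Both switch on the enzyme genes in liver and fat, and in brown fat the pathway runs beside fat burning.

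The study measured RNA on 19 arrays in 3 experiments. In the 3T3-L1 experiment, MED1 knockout cells made with CRISPR/Cas9 were set against their wild-type parent line, a mouse fibroblast line that becomes fat cells after hormonal stimulation, on day 2 and on day 0, with 2 arrays in each of the 4 groups, and each knockout array held RNA pooled from individual clones. In the embryonic experiment, interscapular brown fat at E17.5 came from embryos with Myf5-Cre and 2 floxed Med1 alleles (4 knockout arrays) or with Myf5-Cre, 1 floxed and 1 wild-type allele (3 control arrays). Myf5-Cre acts in precursors that muscle and brown fat share, and the control embryos carry it too. In the adult experiment, interscapular brown fat at 10 weeks came from mice with Adipoq-Cre, which acts in fat cells, and 2 floxed Med1 alleles (2 knockout arrays) or from floxed mice without Cre (2 control arrays). Brown fat also holds cells in which neither Cre acts. The labels do not say whether arrays of a group came from separate cultures, litters or animals. P-values therefore reflect only how far arrays of a group differ, and that spread may be technical. The exception is the comparison over pairs of cell arrays below, where they reflect how far the genotype difference varies between pairs.

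Values are log2 signals that the authors normalized with RMA, and a log2 fold change is knockout minus control, or day 2 minus day 0. A gene was called where limma's two-sided adjusted p, over all 22180 genes, was under 0.05. The 3 experiments had array medians of 4.69 to 4.79 (cells), 3.49 to 3.57 (embryo) and 2.87 to 2.89 (adult), so levels are compared within an experiment only. Med1 itself averaged 7.04 in knockout and 8.41 in wild-type cells on day 2, and it was called lower there (adjusted p = 0.0078 by limma) and on day 0 (adjusted p = 0.016 by limma). In brown fat Med1 was not called: its log2 fold change was -0.35 ± 0.19 in the embryo, where the arrays of both genotypes overlapped, and -1.24 ± 0.31 in the adult, where they did not. The titles and source labels disagree on the day of 4 cell arrays (titled day 2 replicate 1 and day 0 replicate 2 of both genotypes), and days below are those of the titles. Each group by the source label holds arrays of both title days. Between the days, 1265 genes were called in knockout and 2012 in wild-type cells by the titles, and 0 in either by the source labels (limma). Mature adipocyte markers averaged 6.68 to 6.86 in wild-type arrays titled day 2 and 5.36 to 5.52 in those titled day 0. In knockout arrays they averaged 5.70 to 5.72 and 5.33 to 5.42. These values followed the titles. Of the 10 marker genes of mature adipocytes, only Adipoq and Fabp4 lay under the lower quartile of every day 0 cell array. Ucp1, the heat-making protein of brown fat, averaged 7.63 ± 0.50 in knockout and 10.76 ± 0.77 in control embryos (SD, n = 4 and n = 3). In the adult it averaged 11.32 in knockout and 12.30 in control mice.

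Start regions are shown here for the genes called in any comparison that have one (Fasn, Srebf1 and Me1, with every window in the table) and for the 4 genes nearest to the threshold in the embryo (Acly, Acss2, Thrsp and Acacb), so that their sequence can be read beside the RNA values. Each runs from 250 bases before a RefSeq start to 50 bases after it, 300 bases in all, 5′ to 3′ on the strand of the gene, in GRCm38.p6. Capitals mark CCAAT (the box bound by NF-Y) and GGGCGG (the GC box bound by Sp1), on either strand, so ATTGG and CCGCCC are the same motifs read on the other strand.
Fasn (chr11:120824498-120824797, minus strand): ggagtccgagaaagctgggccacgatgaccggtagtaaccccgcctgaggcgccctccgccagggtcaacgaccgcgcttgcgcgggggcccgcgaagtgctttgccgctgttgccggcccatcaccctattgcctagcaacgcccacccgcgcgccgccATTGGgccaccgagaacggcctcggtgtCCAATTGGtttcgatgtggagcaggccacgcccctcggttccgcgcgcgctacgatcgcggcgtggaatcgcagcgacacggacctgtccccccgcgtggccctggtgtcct
Srebf1, the first start (chr11:60222532-60222831, minus strand): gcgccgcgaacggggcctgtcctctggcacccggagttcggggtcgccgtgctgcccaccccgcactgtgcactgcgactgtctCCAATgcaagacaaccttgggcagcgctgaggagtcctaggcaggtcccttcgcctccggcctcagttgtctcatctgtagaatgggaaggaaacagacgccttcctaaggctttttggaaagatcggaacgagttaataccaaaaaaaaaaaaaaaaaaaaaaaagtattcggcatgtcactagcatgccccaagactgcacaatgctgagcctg
Srebf1, the second start (chr11:60220578-60220877, minus strand): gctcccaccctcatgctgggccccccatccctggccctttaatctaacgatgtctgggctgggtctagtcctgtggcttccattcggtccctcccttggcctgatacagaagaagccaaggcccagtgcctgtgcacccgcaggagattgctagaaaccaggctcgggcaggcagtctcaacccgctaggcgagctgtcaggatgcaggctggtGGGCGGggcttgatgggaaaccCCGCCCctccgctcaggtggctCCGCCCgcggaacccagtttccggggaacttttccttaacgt
Srebf1, the third start (chr11:60210422-60210721, minus strand): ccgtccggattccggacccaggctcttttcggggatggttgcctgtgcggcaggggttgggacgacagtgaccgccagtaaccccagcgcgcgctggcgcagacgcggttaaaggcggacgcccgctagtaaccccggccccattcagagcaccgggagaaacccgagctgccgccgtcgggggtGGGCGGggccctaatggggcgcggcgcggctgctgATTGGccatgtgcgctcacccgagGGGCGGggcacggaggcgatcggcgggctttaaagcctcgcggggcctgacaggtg
Me1, the first start (chr9:86695865-86696164, minus strand): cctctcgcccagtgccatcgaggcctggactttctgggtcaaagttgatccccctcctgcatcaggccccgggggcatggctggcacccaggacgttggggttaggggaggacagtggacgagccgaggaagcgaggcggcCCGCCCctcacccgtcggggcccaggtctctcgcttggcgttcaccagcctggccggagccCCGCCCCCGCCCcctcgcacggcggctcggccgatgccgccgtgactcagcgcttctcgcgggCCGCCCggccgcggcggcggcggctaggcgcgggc
Me1, the second start (chr9:86687228-86687527, minus strand): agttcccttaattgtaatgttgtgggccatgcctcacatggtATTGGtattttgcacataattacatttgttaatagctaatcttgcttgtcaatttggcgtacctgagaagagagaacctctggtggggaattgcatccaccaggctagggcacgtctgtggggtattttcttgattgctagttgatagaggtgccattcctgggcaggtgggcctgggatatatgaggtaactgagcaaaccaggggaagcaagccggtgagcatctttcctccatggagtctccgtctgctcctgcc
Acly (chr11:100527951-100528250, minus strand): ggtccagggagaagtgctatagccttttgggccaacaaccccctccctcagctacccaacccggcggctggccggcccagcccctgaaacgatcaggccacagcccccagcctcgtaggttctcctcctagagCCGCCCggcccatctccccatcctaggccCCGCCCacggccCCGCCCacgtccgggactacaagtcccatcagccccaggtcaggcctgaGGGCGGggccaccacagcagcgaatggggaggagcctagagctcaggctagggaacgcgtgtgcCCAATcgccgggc
Acss2 (chr2:155517793-155518092, plus strand): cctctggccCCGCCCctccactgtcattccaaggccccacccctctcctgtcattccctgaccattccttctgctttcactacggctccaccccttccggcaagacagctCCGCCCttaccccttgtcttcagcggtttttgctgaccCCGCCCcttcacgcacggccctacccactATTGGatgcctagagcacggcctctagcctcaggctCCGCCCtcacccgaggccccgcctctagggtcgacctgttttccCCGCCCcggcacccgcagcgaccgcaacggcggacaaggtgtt
Acacb (chr5:114165268-114165567, plus strand): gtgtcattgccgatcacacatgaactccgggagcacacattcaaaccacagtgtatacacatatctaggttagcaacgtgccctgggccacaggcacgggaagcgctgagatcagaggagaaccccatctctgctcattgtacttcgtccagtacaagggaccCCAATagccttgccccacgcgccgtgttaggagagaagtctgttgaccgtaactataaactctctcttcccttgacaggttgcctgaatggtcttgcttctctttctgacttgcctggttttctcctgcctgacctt
Thrsp (chr7:97417501-97417800, minus strand): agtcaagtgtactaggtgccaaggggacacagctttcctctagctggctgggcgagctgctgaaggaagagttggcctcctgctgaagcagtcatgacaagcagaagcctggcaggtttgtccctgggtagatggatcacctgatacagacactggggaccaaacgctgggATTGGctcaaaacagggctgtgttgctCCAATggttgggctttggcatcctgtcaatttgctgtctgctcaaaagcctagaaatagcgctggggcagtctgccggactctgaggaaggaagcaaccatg

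RefSeq gave 13 such windows for 9 of the 10 genes, and Scd1 had none in the table. CCAAT occurred in 9 of the 13 windows, from 8 genes, against 37.41% of all 32851 windows of this length. GGGCGG occurred in 6 of the 13 windows, against 35.66% of all windows. Fasn had CCAAT on the minus strand 90 bases before the start, and a pair that overlaps as CCAATTGG from 62 bases before it. Thrsp had CCAAT 79 and 52 bases before its start and no GGGCGG. Acss2 had 5 copies of GGGCGG and 1 of CCAAT, and Acly 4 and 1. The first window of Me1 had 4 copies of GGGCGG and no CCAAT, and the second 1 of CCAAT and no GGGCGG. Of the 3 windows of Srebf1, the first had 1 CCAAT, the second 3 copies of GGGCGG and the third 2 of GGGCGG and 1 of CCAAT. The sterol regulatory element TCACNCCAC, bound by SREBP, was found on either strand in 1 of the 13 windows, the second of Mlxipl, against 1.242% of all windows. CACGTG, an E-box, was in 1 window, the first of Mlxipl, against 7.15% of all windows. The direct repeats of the half-site AGGTCA read by PPAR with RXR (1 base between) and by LXR with RXR (4 bases between) were in none of the 13, against 0.03957% and 0.01522% of all windows. No other matches overlapped. A match describes the letters only. Some windows lie inside the RefSeq span of their gene and do not cover its first base. They are those of Fasn, Acacb and Acaca, all 3 of Srebf1, and the second windows of Me1 and Mlxipl. The window of Fasn ends at 120824797 on chr11, and the gene, on the minus strand, begins at 120825166. The first window of Srebf1 ends at 60222831 on chr11, and that gene, also on the minus strand, begins at 60224186. The window of Acacb starts at 114165268 on chr5, in a gene that begins at 114146321. That of Acaca starts at 84195188 on chr11, in a gene that begins at 84129635.

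In embryonic brown fat all 10 genes had a lower mean in Myf5-Cre Med1 knockout embryos than in controls, and 1 of the 10, Scd1, was called lower. Across all genes 0.5% were called lower in this comparison. The median log2 fold change was -0.73 over the 10 genes and -0.01 over all 22180. The arrays of the genotypes did not overlap for 6 of the 10, all lower in knockout embryos (Scd1, Acacb, Acss2, Thrsp, Acly and Acaca), where 6.83% of all genes were lower without overlap. In bulk tissue, fewer fat cells and less RNA per fat cell cannot be told apart.

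Scd1, the desaturase, read 7.03, 6.95, 6.41 and 6.31 in knockout embryos, against 8.99, 8.57 and 10.31 in control embryos. Every knockout array lay more than 1 log2 unit under every control array. The log2 fold change was -2.62 ± 0.41, a 6.14-fold lower level (adjusted p = 0.046 by limma). Without control replicate 3, the highest array, it was -2.11 (adjusted p = 0.094 by limma), and the call was lost without any 1 of the 7 arrays, over a range of -2.98 to -2.11.

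Both acetyl-CoA suppliers lay lower in every knockout array than in any control array. Acss2, the acetate enzyme, read 5.32, 5.68, 5.50 and 5.27 in knockout embryos, against 6.43, 6.36 and 7.32 in control embryos, with a log2 fold change of -1.26 ± 0.24 (adjusted p = 0.062 by limma). Acly, the citrate enzyme, read 8.22, 8.42, 8.22 and 8.17 in knockout embryos, against 8.67, 8.91 and 9.17 in control embryos. Its log2 fold change was -0.66 ± 0.12 (adjusted p = 0.060 by limma). Neither was called. Me1, the NADPH source, lay between 5.51 and 6.08 in knockout and between 5.83 and 6.35 in control embryos, with overlapping arrays and a 95% interval of the log2 fold change of -0.58 to 0.25.

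Both carboxylases were lower without overlap, and neither was called. Acacb, the isoform tied to the mitochondrial surface, read 5.29, 5.79, 6.63 and 5.37 in knockout embryos, against 6.72, 7.40 and 8.06 in control embryos (log2 fold change -1.63 ± 0.41, adjusted p = 0.092 by limma). Knockout replicate 3 came within 0.1 log2 units of the lowest control array. Acaca, the cytosolic isoform, read 6.60, 6.59, 6.53 and 6.44 in knockout embryos, against 6.62, 6.81 and 7.26 in control embryos, with a log2 fold change of -0.36 ± 0.14. Fasn, the next enzyme, read 7.75, 8.02, 7.46 and 7.43 in knockout embryos, against 8.36, 7.96 and 9.10 in control embryos. Knockout replicate 2 and control replicate 2 overlapped, and the log2 fold change of -0.81 ± 0.27 was not called (adjusted p = 0.17 by limma).

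Among the regulators, Thrsp read 10.01, 9.90, 9.62 and 9.23 in knockout embryos, against 10.63, 10.54 and 10.92 in control embryos. The groups did not overlap, and the log2 fold change was -1.01 ± 0.19, not called (adjusted p = 0.062 by limma). Srebf1 read 6.92, 7.25, 6.78 and 6.62 in knockout embryos, against 7.12, 7.30 and 7.76 in control embryos (log2 fold change -0.50 ± 0.19, adjusted p = 0.21 by limma). Mlxipl lay between 6.78 and 7.65 in knockout and between 7.05 and 7.63 in control embryos, with overlap and a log2 fold change of -0.22 ± 0.22. The factor genes Srebf1 and Mlxipl thus had smaller differences than Scd1, Acacb, Acss2, Thrsp, Fasn and Acly. That of Srebf1 was larger than those of Acaca (-0.36) and Me1 (-0.16), and that of Mlxipl was larger than that of Me1. No difference between genes was tested.

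Control replicate 3 was the highest control array for 9 of the 10 genes. Averaged over the 10 genes, the 3 control arrays deviated from the mean of the experiment by 0.26, 0.34 and 0.98 log2 units. Without that array, Acss2 had a log2 fold change of -0.95, Acacb of -1.29, Thrsp of -0.90, Acly of -0.53, Fasn of -0.49, Acaca of -0.18 and Me1 of 0.01, and no gene was called (limma, 0 of 22180, with 2991 at an unadjusted p under 0.05).

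**Figure D1:**
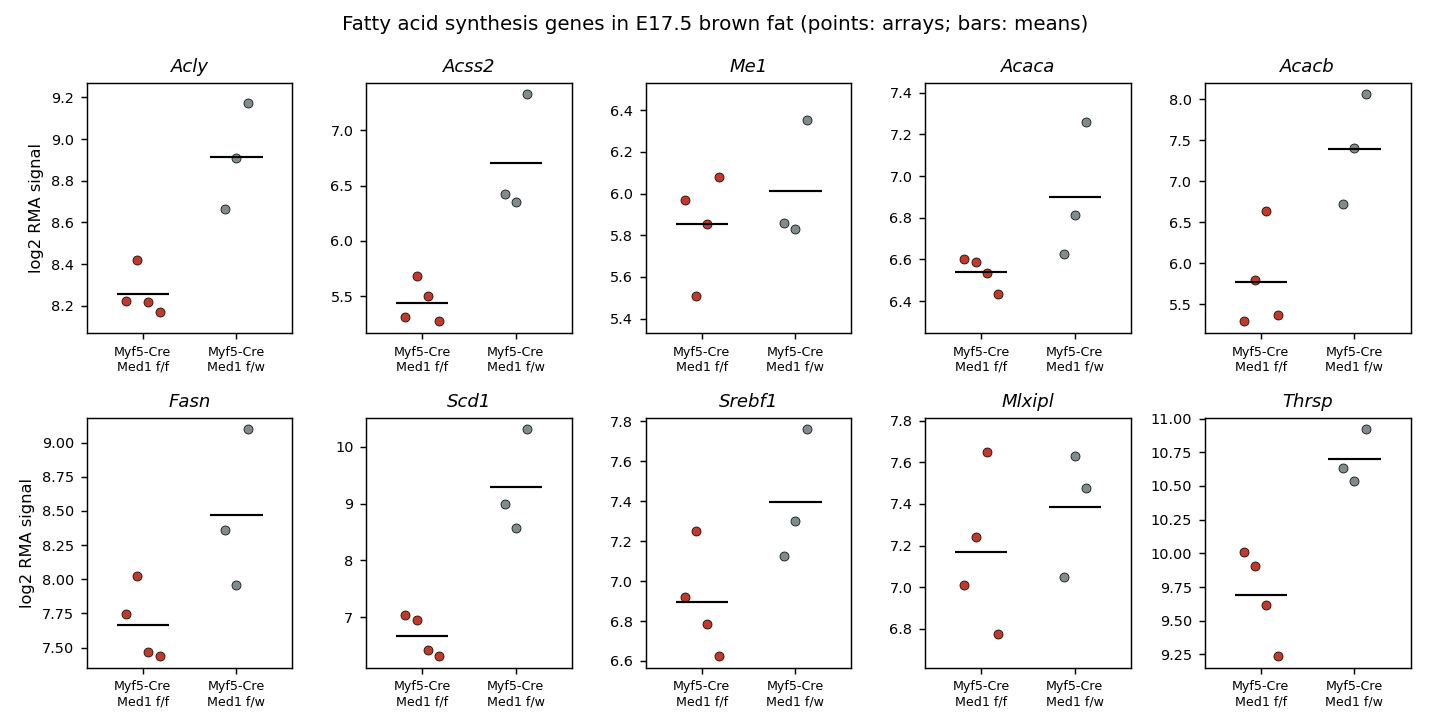
Log2 RMA signal (y axis) of the 10 genes in E17.5 brown fat, with a point for each array and a bar for each group mean, knockout (Myf5-Cre Med1 f/f, n = 4) left of control (Myf5-Cre Med1 f/w, n = 3). For Scd1 the knockout arrays lie between 6.31 and 7.03 and the control arrays between 8.57 and 10.31, while the arrays of Me1, Mlxipl, Fasn and Srebf1 overlap.

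Of 58 other genes of the pathway, in 6 lists, 53 were measured, and in embryonic brown fat 4 were called lower and 0 higher (limma). Pdha1, a subunit of pyruvate dehydrogenase, differed by -0.69 ± 0.11 on the log2 scale (adjusted p = 0.046 by limma). Hsd17b12, a reductase of fatty acid elongation, differed by -0.61 ± 0.10. Cbr4 (-0.87 ± 0.11) and Ndufab1 (-0.59 ± 0.09), a reductase subunit and the acyl carrier protein of mitochondrial fatty acid synthesis, were the others. By list, 8 of 9 citrate and glucose supply genes had a lower mean (median -0.56), as did 6 of 7 mitochondrial synthesis genes (median -0.59), 8 of 8 genes of acetyl-CoA carboxylase control (median -0.19) and 4 of 5 of NADPH supply (median -0.37). The sterol and sugar sensing genes had a median of 0.04, with 5 of 12 lower, and elongation and desaturation genes of -0.21, with 7 of 12 lower.

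Markers of cell types moved with genotype in the embryo too, and their part in the results was not tested. Averaged over each list, mature adipocyte markers lay at 8.92 to 9.22 in knockout and 9.41 to 9.83 in control embryos, with 10 of 10 lower by mean and 0 called. Brown adipocyte markers lay at 7.09 to 7.54 in knockout and 8.13 to 8.63 in control embryos, with 9 of 10 lower and Ucp1 and Dio2 called lower. Skeletal muscle markers lay at 7.50 to 7.80 in knockout and 6.02 to 7.11 in control embryos, with 10 of 10 higher and 0 called. Fibroblast markers lay at 8.85 to 8.96 in knockout and 8.21 to 8.54 in control embryos, with 7 of 7 higher and Col1a1 and Col3a1 called. Macrophage, endothelial and hepatocyte lists had 0 called, and none of the 4 erythroid markers was measured.

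In adult brown fat, 0 of the 10 genes were called in Adipoq-Cre Med1 knockouts, where 0.0271% of all genes were called in either direction (limma, 6 genes). At an unadjusted p under 0.05 there were 3 of the 10 genes and 13.6% of all genes (3013). With 2 arrays against 2, the arrays did not overlap for 5 genes: Acacb, Acss2, Scd1 and Fasn were lower in knockouts and Me1 was higher. Of all genes, 20.1% were lower and 21.8% higher without overlap. The median log2 fold change was -0.42 over the 10 genes and 0.00 over all.

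Acacb read 7.76 and 7.26 in adult knockouts, against 9.12 and 9.16 in adult controls, a log2 fold change of -1.63 ± 0.20 (adjusted p = 0.076 by limma). Scd1 read 11.53 and 10.99 in knockouts, against 12.40 and 12.31 in controls (log2 fold change -1.09 ± 0.21, adjusted p = 0.13 by limma). In both genes the 2 control arrays lay close together and the knockout arrays lower and further apart. Acss2 read 8.11 and 7.15 in knockouts, against 9.72 and 8.45 in controls (log2 fold change -1.46 ± 0.51, adjusted p = 0.31 by limma). Acacb was called lower with trend and robust eBayes (adjusted p = 0.048 by limma), and Acacb and Acss2 were in 1 fit of all 19 arrays (adjusted p = 0.010 and 0.028 by limma), where 2049 of all genes were called. Fasn read 11.75 and 10.48 in knockouts, against 12.25 and 11.96 in controls (log2 fold change -0.99 ± 0.42). The 2 knockout arrays of Fasn differed by more than the lower control array differed from the higher knockout array.

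Me1, the malic enzyme, read 10.41 and 9.89 in adult knockouts, against 9.86 and 9.54 in adult controls. The groups were barely apart, and the log2 fold change was 0.45 ± 0.23 (adjusted p = 0.50 by limma). Thrsp read 10.85 and 10.00 in knockouts, against 11.32 and 10.81 in controls, and the groups overlapped. Acly read 11.38 and 10.47 in knockouts, against 11.41 and 10.22 in controls, a gap within each genotype of about 1 log2 unit. The 95% interval of its log2 fold change, -1.11 to 1.33, leaves room for a difference either way. Srebf1 (6.71 and 5.56 in knockouts, against 7.22 and 5.46 in controls) and Mlxipl (8.90 and 7.98 in knockouts, against 8.94 and 8.04 in controls) also spread more within a genotype than between genotypes. Acaca read 10.48 and 9.79 in knockouts, against 10.13 and 10.25 in controls, so the control arrays lay between the knockout arrays.

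**Figure D2:**
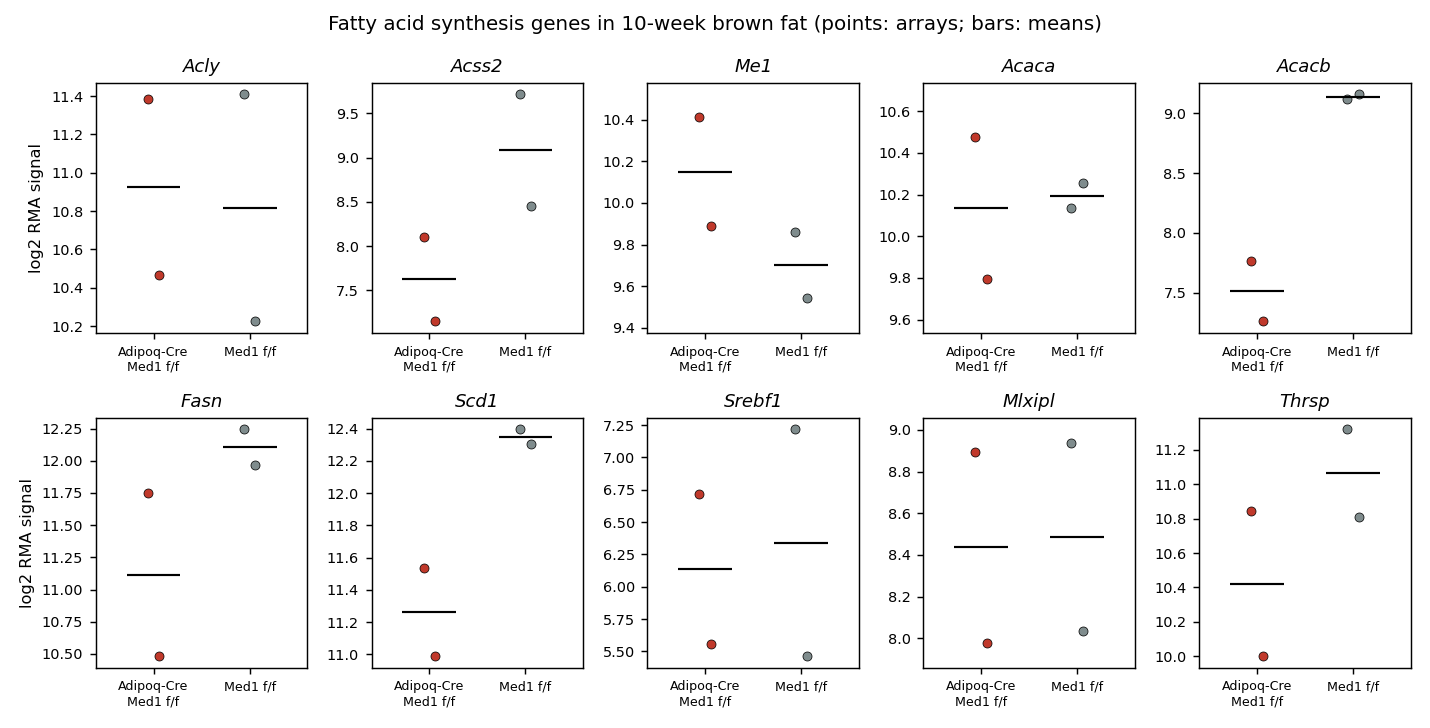
Log2 RMA signal (y axis) of the 10 genes in brown fat at 10 weeks, with a point for each array and a bar for each group mean, knockout (Adipoq-Cre Med1 f/f, n = 2) left of control (Med1 f/f, n = 2). Acacb and Scd1 separate by genotype, with control arrays within 0.1 log2 units of each other, while Acly, Srebf1 and Mlxipl spread widely within both groups.

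None of the 53 other pathway genes was called in the adult (limma), and 14 had an unadjusted p under 0.05. Their lists had medians of -0.28 (citrate and glucose supply, 8 of 9 lower by mean), -0.18 (mitochondrial synthesis, 7 of 7 lower), -0.06 (acetyl-CoA carboxylase control), 0.02 (elongation and desaturation), 0.15 (sterol and sugar sensing) and 0.42 (NADPH supply, 3 of 5 higher). Macrophage markers averaged 7.18 to 7.22 in adult knockouts and 5.66 to 5.93 in adult controls, with 6 of 6 higher by mean and 0 called. Mature adipocyte markers averaged 9.31 to 9.50 in knockouts and 10.11 to 10.14 in controls, with 9 of 10 lower and 0 called. Brown adipocyte markers averaged 7.65 to 8.04 in knockouts and 8.26 to 8.95 in controls, with 9 of 10 lower and 0 called. Fibroblast markers averaged 6.82 to 7.05 in knockouts and 6.38 to 6.55 in controls, with 6 of 7 higher and 0 called. The 3 hepatocyte markers, all lower by mean, averaged 2.59 to 2.64 in knockouts and 2.70 to 2.87 in controls. These levels lay close to or under the adult array medians of 2.87 to 2.89. Muscle and endothelial lists overlapped between genotypes. The part of these lists in the results was not tested.

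The knockout effects in the adult and the embryo were compared in a fit of all 11 brown fat arrays. The experiments differ in age, in Cre driver and in whether the controls carried Cre, and these cannot be told apart here. None of the 10 genes was called, where 1.99% of all genes were (limma, 441 genes), and 1 of the 10 had an unadjusted p under 0.05, as did 16.3% of all genes. Scd1 had the largest difference of the 10, at 1.53 ± 0.58 for adult minus embryo (adjusted p = 0.23 by limma), so the greater reduction in embryos was not established. Acacb had log2 fold changes of -1.63 in both, with a difference of -0.01 and a 95% interval of -1.29 to 1.27. Of the other pathway genes, Mlx, the partner of ChREBP (0.94 ± 0.17), and Idh1, a cytosolic source of NADPH (0.78 ± 0.14), were called higher in the adult effect, and Usf2, an E-box factor (-0.71 ± 0.12), lower (limma). Markers of cell types differed between the effects too. Macrophage markers were higher for 6 of 6, with 3 called (median 1.14), and skeletal muscle markers lower for 10 of 10, with 1 called (median -1.34). Both adipocyte lists and the fibroblast, endothelial and hepatocyte lists had 0 called. The part of these lists in the results was not tested.

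In 3T3-L1 cells, day 2 against day 0 brought higher Fasn and lower Me1 in both genotypes, by the titles. Srebf1 had a higher mean on day 2 in both genotypes and was called in the wild type only. In knockout cells 1 of the 10 genes was called higher (Fasn) and 1 lower (Me1), where 2.14% of all genes were called higher and 3.57% lower. In wild-type cells 2 were called higher (Fasn and Srebf1) and 1 lower (Me1), where 3.44% and 5.64% of all genes were. The arrays of the days did not overlap for 4 genes higher and 2 lower on day 2 in knockout cells (24.6% and 23.3% of all genes), and for 5 and 2 in wild-type cells (26.6% and 22.2%). Fat cell and fibroblast markers moved with the day as well, and their part in the results was not tested. In knockout cells mature adipocyte markers averaged 5.70 to 5.72 on day 2 and 5.33 to 5.42 on day 0, with 3 of 10 called higher (median log2 fold change 0.38). In wild-type cells they averaged 6.68 to 6.86 on day 2 and 5.36 to 5.52 on day 0, with 8 of 10 called higher (median 1.26). Of 7 fibroblast markers 4 were called lower on day 2 in each genotype, with a median of -0.89 in knockout and -1.03 in wild-type cells.

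Fasn read 9.80 and 9.88 on day 2, against 8.83 and 9.12 on day 0, in knockout cells (log2 fold change 0.87 ± 0.20, adjusted p = 0.033 by limma). In wild-type cells it read 9.96 and 10.25 on day 2, against 8.86 and 9.39 on day 0 (log2 fold change 0.98 ± 0.20, adjusted p = 0.014 by limma). The day 2 arrays were above every day 0 array in both genotypes. Srebf1 read 7.04 and 6.66 on day 2, against 6.73 and 6.04 on day 0, in knockout cells, with overlap and a log2 fold change of 0.47 ± 0.25 that was not called (adjusted p = 0.40 by limma). In wild-type cells it read 7.84 and 7.40 on day 2, against 6.64 and 6.35 on day 0, without overlap (log2 fold change 1.12 ± 0.25, adjusted p = 0.022 by limma). The change of Srebf1 was not called different between genotypes (-0.65 ± 0.35, knockout minus wild type).

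Me1 moved the other way. It read 7.59 and 7.73 on day 2, against 8.24 and 8.27 on day 0, in knockout cells (log2 fold change -0.59 ± 0.12, adjusted p = 0.024 by limma). In wild-type cells it read 7.61 and 7.69 on day 2, against 8.08 and 8.22 on day 0 (log2 fold change -0.50 ± 0.12, adjusted p = 0.038 by limma). Every day 2 array was under every day 0 array in both genotypes.

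These calls depend on single arrays and on the fit, and none remains with the source label, whose groups mix the title days. In 1 fit of all 19 arrays none of the 10 was called in either genotype, with the same log2 fold changes and adjusted p-values of 0.11 for Me1 and 0.19 for Fasn in knockout cells, and of 0.097 for Fasn, 0.13 for Srebf1 and 0.15 for Me1 in wild-type cells (limma). With quantile normalization Me1 in wild-type cells was not called (log2 fold change -0.46, adjusted p = 0.059 by limma). With the source label for the day, 0 of 22180 genes were called in either genotype (limma, 559 in knockout and 650 in wild-type cells at an unadjusted p under 0.05), and Srebf1 had log2 fold changes of -0.54 in knockout and -0.37 in wild-type cells. The call of Fasn in wild-type cells was lost without day 0 replicate 1 (adjusted p = 0.076 by limma) or day 2 replicate 2 (adjusted p = 0.091 by limma) of the wild type. That of Srebf1 was lost without either day 0 array or day 2 replicate 1 of the wild type, over adjusted p-values of 0.051 to 0.13 by limma. That of Me1 in wild-type cells was lost without any 1 of the 8 arrays, and in knockout cells the calls of Fasn and Me1 were each lost without any 1 of the 4 knockout arrays.

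Scd1 read 8.55 and 8.59 on day 2, against 7.83 and 9.07 on day 0, in knockout cells, and 9.47 and 9.54 on day 2, against 7.93 and 9.16 on day 0, in wild-type cells. In both genotypes replicate 2 was the higher day 0 array by over 1 log2 unit, and the day 0 arrays of the knockout straddled its day 2 arrays. Neither change was called (log2 fold change 0.12 ± 0.42 in knockout and 0.96 ± 0.42 in wild-type cells). Acacb was lower on day 2 without overlap in both genotypes (log2 fold change -0.25 ± 0.12 in knockout and -0.39 ± 0.12 in wild-type cells), and not called. Thrsp (4.29 to 4.80), Mlxipl (4.47 to 4.80) and Acacb (4.63 to 5.34) lay close to the array medians throughout, and the files carry no test of signal against background.

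Of the 53 other pathway genes, 5 were called higher and 1 lower on day 2 in knockout cells, and 6 and 2 in wild-type cells (limma). Pcx, pyruvate carboxylase, had log2 fold changes of 1.67 ± 0.17 in knockout and 2.33 ± 0.17 in wild-type cells. Rxra, the partner receptor of PPAR and LXR, had 0.93 ± 0.14 in knockout and 1.25 ± 0.14 in wild-type cells. Hacd2, an elongation enzyme, had 0.72 ± 0.12 in knockout and 0.86 ± 0.12 in wild-type cells. The NADPH enzymes Pgd (0.92 ± 0.15 in knockout and 0.89 ± 0.15 in wild-type cells) and Idh1 (0.68 ± 0.15 in knockout and 0.64 ± 0.15 in wild-type cells) rose in both genotypes, while Me1, another source of NADPH, fell. Fads2, a desaturase of polyunsaturated fatty acids, fell by 0.61 in knockout and by 0.72 in wild-type cells on the log2 scale. Taldo1, an enzyme of the pentose phosphate pathway, was not called in knockout cells (0.17 ± 0.20, adjusted p = 0.77 by limma) and was called higher in wild-type cells (0.77 ± 0.20). Mid1ip1, a paralogue of Spot 14 that activates acetyl-CoA carboxylase, was not called in knockout cells (-0.91 ± 0.25, adjusted p = 0.071 by limma) and was called lower in wild-type cells (-1.14 ± 0.25). Neither gene's change was called different between genotypes (-0.60 ± 0.28 for Taldo1 and 0.23 ± 0.35 for Mid1ip1, knockout minus wild type).

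Between genotypes, 0 of the 10 genes were called in cells on day 2, where 0.266% of all genes were called (limma, 59 genes), and 1 of the 10 had an unadjusted p under 0.05, as did 8.15% of all genes. Srebf1 read 7.04 and 6.66 in knockout cells, against 7.84 and 7.40 in wild-type cells, on day 2, a log2 fold change of -0.77 ± 0.25 (adjusted p = 0.45 by limma). Scd1 read 8.55 and 8.59 in knockout cells, against 9.47 and 9.54 in wild-type cells, on day 2, a log2 fold change of -0.94 ± 0.42 (adjusted p = 0.62 by limma). Neither gene's day 2 arrays overlapped between genotypes, and the 4 groups share an estimate of the spread, with an SD of Scd1 of 0.03 and 0.05 on day 2 and of 0.88 in both groups on day 0. In all, 5 of the 10 were lower and 1 higher without overlap on day 2, where 18.9% and 17.4% of all genes were. Mature adipocyte markers averaged 5.70 to 5.72 in knockout and 6.68 to 6.86 in wild-type cells on day 2, with 10 of 10 lower by mean and 5 called lower. Their part in the results was not tested.

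On day 0, 0 of the 10 genes were called (limma, 41 of all genes, 0.185%). At an unadjusted p under 0.05 there were 2 of the 10 and 4.88% of all genes. Srebf1 and Scd1 had log2 fold changes of -0.11 ± 0.25 and -0.09 ± 0.42. The arrays did not overlap for 2 genes lower and 1 higher in knockout cells, where 16.1% and 17.9% of all genes were. Acss2 read 6.34 and 6.24 in knockout cells, against 6.47 and 7.35 in wild-type cells, on day 0 (log2 fold change -0.62 ± 0.26). The change from day 0 to day 2 differed between genotypes by -0.84 ± 0.60 for Scd1 and -0.65 ± 0.35 for Srebf1, knockout minus wild type. No gene of all 22180 was called for this difference, 0% (limma, 941 at an unadjusted p under 0.05), so the lower values in knockout cells on day 2 were not shown to be particular to that day.

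Knockout and wild-type arrays of the same title day and replicate were set together as 4 pairs, which hold under either label of the day. The labels do not say that paired arrays share a culture or batch. Without the pairs as a block 79 genes and 0 of the 10 were called, with 1977 genes at an unadjusted p under 0.05 (limma). Over these pairs 0 of the 10 genes were called, where 0.289% of all genes were (limma, 64 genes), and 5 of the 10 had an unadjusted p under 0.05, as did 12.3% of all genes. Scd1, Acss2, Acacb and Fasn were lower in the knockout array of all 4 pairs, where 10.8% of all genes were lower in every pair. Scd1 differed by -0.92 and -0.95 in the pairs titled day 2 and by -0.10 and -0.09 in the pairs titled day 0. Srebf1 differed by -0.80 and -0.74 in the day 2 pairs, and by 0.08 and -0.31 in the day 0 pairs. The mean log2 fold changes over the pairs were -0.52 ± 0.17 for Scd1, -0.47 ± 0.16 for Acss2, -0.44 ± 0.15 for Srebf1, -0.27 ± 0.08 for Acacb and -0.21 ± 0.09 for Fasn. These standard errors come from the spread between pairs, which includes any difference between the days. Acly, Acaca, Me1, Mlxipl and Thrsp had means between -0.11 and 0.06. None of the 53 other pathway genes was called between genotypes in cells over the pairs or on either day (limma), with 8 over the pairs, 6 on day 2 and 1 on day 0 at an unadjusted p under 0.05.

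**Figure D3:**
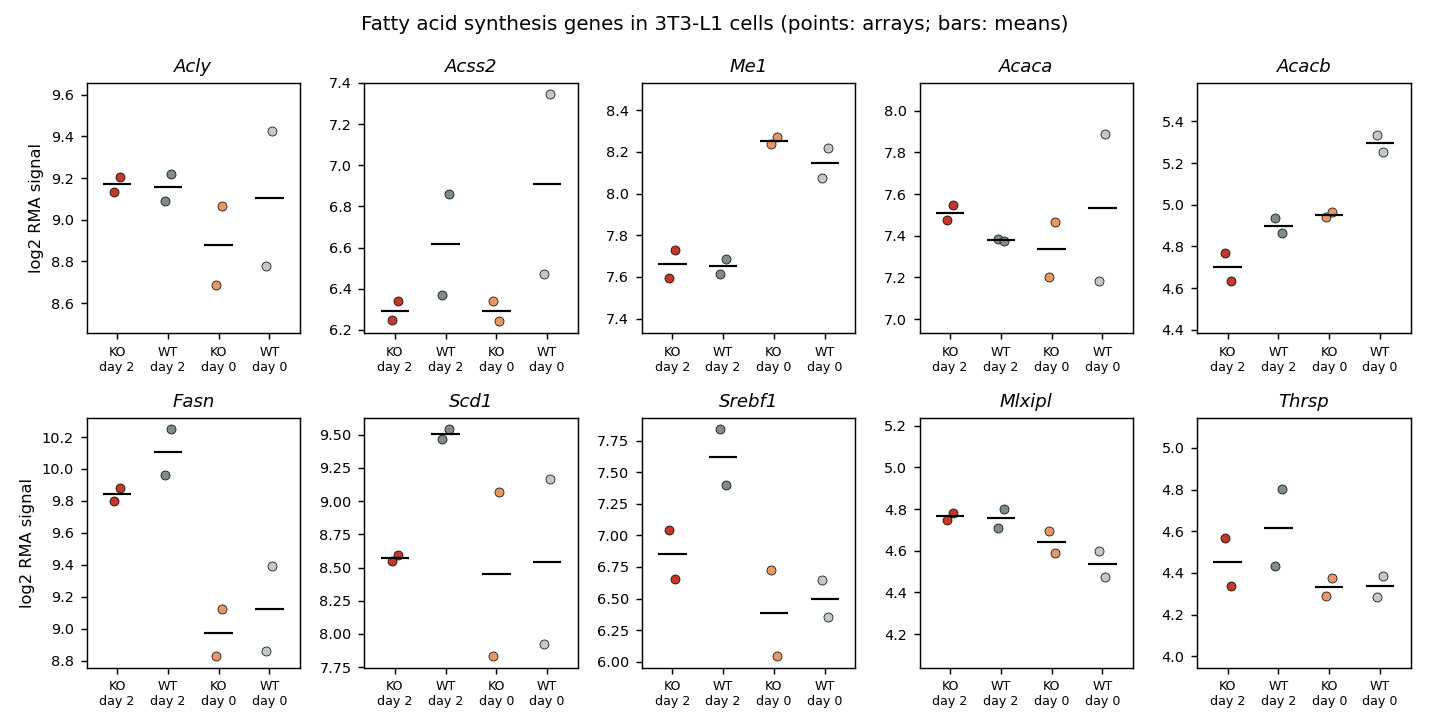
Log2 RMA signal (y axis) of the 10 genes in 3T3-L1 cells by the title day, with a point for each array (n = 2 a group) and a bar for each group mean. Scd1 and Srebf1 separate by genotype on day 2, with Scd1 at 8.55 and 8.59 in knockout and 9.47 and 9.54 in wild-type cells, while Me1 separates by day in both genotypes.

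**Figure D4:**
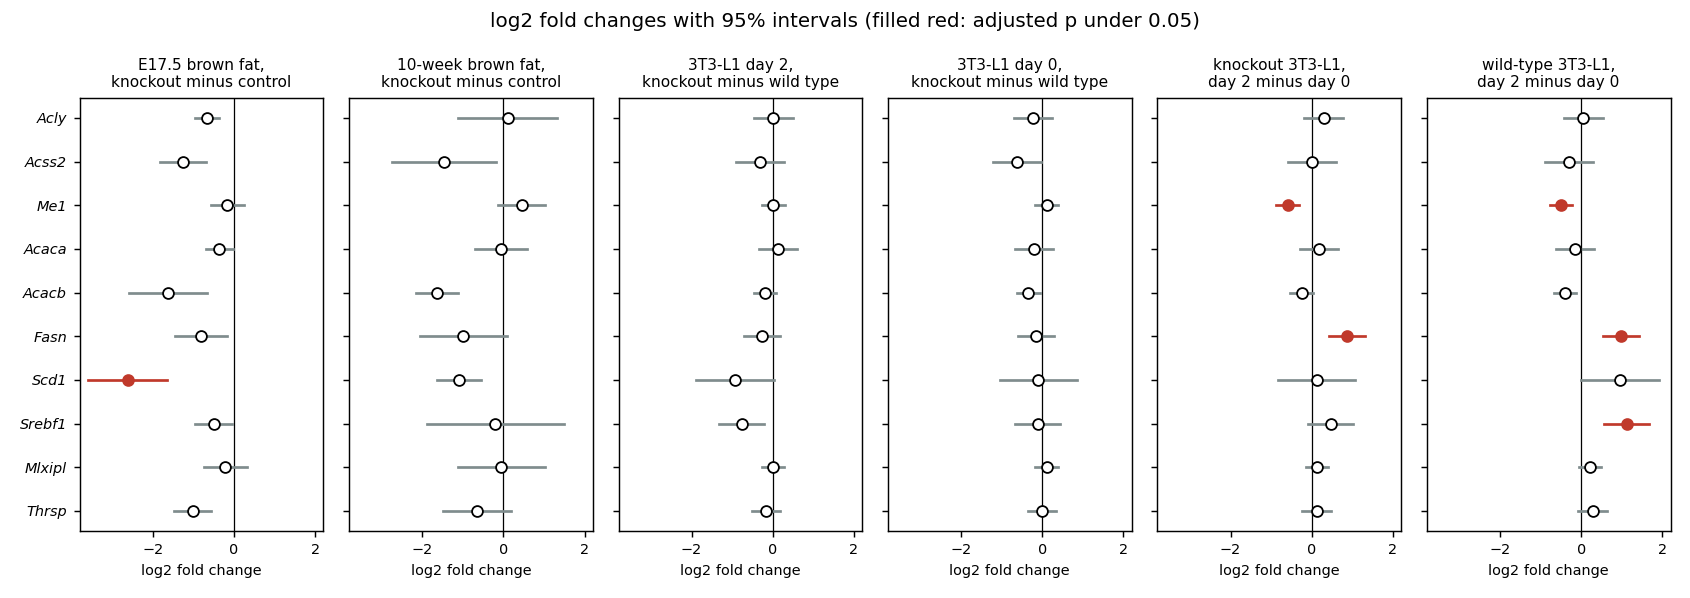
Log2 fold change (x axis) of each gene (rows) in 6 comparisons (panels), with 95% intervals from limma, and filled red where the adjusted p was under 0.05. Red points are Scd1 in the embryo, Fasn and Me1 for day 2 against day 0 in knockout cells, and Fasn, Srebf1 and Me1 in wild-type cells.

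Over the 19 arrays, each taken as a deviation from the mean of its experiment, 9 of the 10 genes followed the mean profile of the 10 with Pearson r between 0.58 (Mlxipl) and 0.93 (Thrsp), and Me1 did so with r of 0.13. A gene is part of that mean, and the arrays share genotype and experiment, so these values are a description. Of all other genes, the 5 with the highest r with the mean profile were Odf3l1 (0.94), Cpn2 (0.93), Esr1 (0.93), Abcb10 (0.93) and Dlat (0.92), over 19 arrays. Within the 8 cell arrays the r of Odf3l1, Cpn2 and Abcb10 was only 0.36, 0.23 and 0.34, while Esr1 had 0.85 and Dlat 0.84.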

How the data were processed

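RNA of 19 samples was measured on mouse whole-transcript arrays. The deposited table holds log2 values of 41345 transcript clusters. Per the submitters' processing notes, the authors used RMA and Transcriptome Analysis Console. RMA corrects background, equalises array distributions and summarises probes on a log2 scale, which compresses differences of dim genes. Versions and genome build were not given in the sources used here. Clusters with 1 symbol were kept (23521, with the highest mean for the 1082 genes with several), which left 22180 genes. Groups follow the titles.

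Tests used limma 3.58.1 in R 4.3.3 (lmFit, eBayes, two-sided, Benjamini-Hochberg over 22180 genes, threshold 0.05), with a fit per experiment, and were tested on simulated data. Values after ± are standard errors unless SD is written. The 4 knockout and wild-type cell pairs entered as a block: deviations of paired arrays from their genotype means correlated at 0.61 to 0.67, which includes the day. The number of arrays limits the precision.

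All 10 members were named whatever their result. Genes of the 6 pathway lists were named where called, up to 4 a list and comparison. The members and lists were chosen with earlier results of these data known. Start regions are from RefSeq (GRCm38.p6). Alternatives were the replicate block, the source label for the day, trend and robust eBayes, quantile normalization, a filter on dim genes, the mean over rows, 1 fit of all arrays and leaving out each array.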

Additional observations from a re-analysis of the deposited data

How the results depend on the processing

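With 2 to 4 arrays a group, 1 array or setting changed most calls, and the causes were not tested. In the embryo, 257 genes and 1 of the 10 (Scd1) were called. These fell to 0 and 0 without any 1 array and with the replicate block (Scd1 -2.49). Above the median level 1111 genes and 5 of the 10 were called, in 1 fit of all 19 arrays 1527 and 4, and with quantile normalization 2 of the 10. Over the 6 settings that kept all embryonic arrays, Acss2 was called lower in 3, Acacb and Thrsp in 2 each, and Acly in 1. Scd1 lost its call in 1 of them. In the adult, 6 genes and 0 of the 10 became 139 and 1 with the replicate block (Acss2, -1.46, adjusted p = 0.046 by limma), 78 and 1 with trend and robust eBayes (Acacb), 66 with quantile normalization, 68 above the median, 2049 and 2 in the fit of 19 arrays, and 0 without any 1 array. The difference between adult and embryo had 441 genes, 773 in the fit of 19 arrays and 206 to 524 without 1 array.

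In cells over pairs, 64 genes became 79 without the block, 245 with trend, 149 above the median, 177 in the fit of 19 arrays and 20 to 32 without 1 pair. On day 0, 41 became 1 with the source label, 88 in the fit of 19 arrays and 3 to 40 without 1 array. On day 2, 59 became 0, 120 and 12 to 47 in the same order. For the difference between genotypes in the change of days, 0 became 1 with the replicate block, 11 in the fit of 19 arrays and 0 to 2 without 1 array. For day 2 against day 0, no gene (0) was called with the source label, and none of the 10 was called higher or lower (0) in the fit of 19 arrays. In wild-type cells quantile normalization left 0 of the 10 lower, and the filter gave 2. Leaving out 1 array gave 496 to 1282 genes in knockout and 1143 to 1714 in wild-type cells, with 0 to 1 and 0 to 2 of the 10 higher, and 0 to 1 and 0 to 0 lower. With the replicate block no other call of the 10 genes changed, and the counts over all genes were 54 on day 0, 86 on day 2, 1660 and 2555 for the days in knockout and wild-type cells, and 338 for the adult minus embryonic effect. Same-numbered arrays of both genotypes deviated together with r of 0.35 (day 0), 0.30 (day 2) and 0.33 (adult), and with r of 0.31, -0.02 and 0.11 in the embryo, where the numbers do not pair arrays. In the adult, with 2 arrays a group and no label of a shared litter or day, a pairing by number is not established.

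With the source label, whose groups mix the title days, 17 of 50 log2 fold changes changed sign, and none was called there. They became, for knockout minus wild type on day 0 Acaca 0.058, Thrsp 0.068. They were, for knockout minus wild type on day 2 Acly -0.19, Acaca -0.13. They were, for day 2 minus day 0 in wild-type cells Acaca 0.35, Acss2 0.68, Me1 0.11, Srebf1 -0.37, Mlxipl -0.016. They were, for day 2 minus day 0 in knockout cells Acss2 -0.0031, Me1 0.084, Srebf1 -0.54, Mlxipl -0.035, Thrsp -0.072. They were, for the difference of these changes Acly -0.16, Acaca -0.18, Acss2 -0.69. With quantile normalization 3 of 90 did, all near 0: for knockout minus wild type on day 2 Me1 -0.015, Mlxipl -0.0073, and for the adult minus embryonic effect Acacb 0.0070. Without 1 array or pair 55 of 660 changed sign, none of them called there, with these ranges. For the pairs, Acaca -0.10 to 0.10, Thrsp -0.16 to 0.041. For knockout minus wild type on day 0, Srebf1 -0.46 to 0.23, Scd1 -0.72 to 0.53, Thrsp -0.056 to 0.045, Acly -0.55 to 0.10, Acaca -0.55 to 0.15, Fasn -0.42 to 0.12. For knockout minus wild type on day 2, Acly -0.052 to 0.080, Me1 -0.057 to 0.077, Mlxipl -0.036 to 0.057, Thrsp -0.35 to 0.020. For day 2 minus day 0 in wild-type cells, Acly -0.27 to 0.38, Acaca -0.51 to 0.20, Acss2 -0.73 to 0.14. For day 2 minus day 0 in knockout cells, Scd1 -0.50 to 0.74, Acss2 -0.046 to 0.052. For the difference of these changes, Fasn -0.38 to 0.16, Acly -0.084 to 0.56, Acaca -0.023 to 0.68, Acss2 -0.14 to 0.73, Thrsp -0.34 to 0.026. For the embryo, Me1 -0.25 to 0.0085. For the adult, Srebf1 -1.08 to 0.68, Mlxipl -0.51 to 0.41, Acly -0.49 to 0.70, Acaca -0.40 to 0.28. For the adult minus embryonic effect, Acacb -0.34 to 0.33, Fasn -0.82 to 0.45, Acss2 -0.83 to 0.43, Srebf1 -0.58 to 1.18, Mlxipl -0.29 to 0.63, Acaca -0.042 to 0.64, Thrsp -0.059 to 0.79.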
